A study of Drosophila melanogaster with 2 samples.

Results

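Krüppel-like factors are transcription factors that carry C2H2 zinc fingers at their C-terminal end and bind GC boxes and CACCC-type sequences in the promoters and enhancers of other genes. In flies they act in sugar sensing, dorsal closure of the embryo, neuron shape and the differentiation of nephrocytes, the insect cells that filter the haemolymph. The genes described here are cbt, dar1, CG42741, luna and Klf15, 5 of the 13945 protein-coding genes that the Ensembl annotation places on the 6 chromosomes with listed regions. They were taken by name. A region was counted for a gene when its summit lay between 2000 bp upstream of the gene and the gene end, and because the genes were proposed with these lists in view, all counts and ranks below are descriptions without a test.

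The libraries are 2 biological replicates of chromatin immunoprecipitation sequencing from whole Drosophila melanogaster pupae of 48 h, with males and females pooled. All pupae came from 1 transgenic line that stably expresses CG8301 with GFP fused to its C terminus. Whole animals were used, so a region cannot be placed in a tissue. The labels are at odds, since the antibody field names CG8301 while "input control" stands in the description of each library. No region is therefore assigned to CG8301. Regions under the authors' irreproducible discovery rate (IDR) threshold make up the IDR list. It holds 8005 peaks, which are the 8005 strongest of the 30000 regions in the list from both replicates pooled. Each replicate list also holds 30000 regions. Sequencing depth is unknown.

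The spans of the 5 genes held 26 IDR summits, 0.325% of the list, and 112 summits of the pooled list. CG42741 had 10 IDR summits, luna 9, dar1 4, cbt 3 and Klf15 none. At least 1 IDR summit, and also at least 3, were found in 4 of the 5 members, beside 27.6% and 5.77% of all protein-coding genes. The same 4 had a pooled summit in the span and within 500 bp of a start, beside 42.2% and 31.6% of all genes. Since the members were chosen on such counts, nothing is read from the difference. Place within the gene separated cbt from the other members. It was the only one with an IDR summit within 500 bp of its own transcription start, a feature of 16.2% of protein-coding genes. With a window of 250 bp no member had one. Likewise, cbt was the only one with an IDR summit in a 5' UTR or upstream of the gene, though Klf15 had no summit to place. Of all IDR summits 0.612% lay in a 5' UTR outside promoters, and no share upstream of genes is given. In all, 25 of the 26 summits lay outside the promoters of their own genes, and 70.6% of the whole list lay outside all promoters. All 23 IDR summits of luna, dar1 and CG42741 lay in introns, where 49.3% of all IDR summits were found. Introns make up most of the length of these genes, and 18.6% of the whole list lay between genes, so the comparison is not of like sets.

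**Figure D1:**
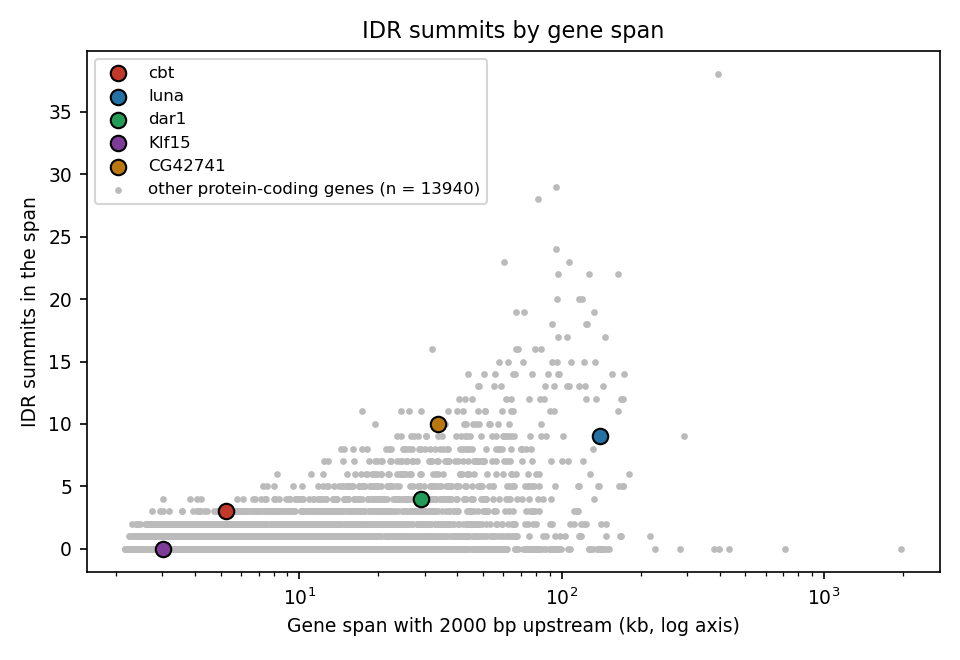
IDR summits in the span of each protein-coding gene (vertical axis) against the length of the span in kb (log axis), with the 5 members as coloured points and the other genes in grey. cbt has 3 summits in 5.24 kb, CG42741 has 10 in 33.9 kb, dar1 has 4 in 29.1 kb, luna has 9 in 140 kb and Klf15 has 0 in 3.03 kb.

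The gene cbt (cabut, FBgn0043364) encodes a repressor of the TGF-beta-inducible early gene class. It is induced by dietary sugar through the Mondo and Mlx factors and also acts in dorsal closure. It lies on the minus strand of 2L from 476446 to 479688, inside an intron of ush, which runs the other way and encodes a FOG-type cofactor of GATA factors. All 3 cbt summits therefore also lie in an intron of ush, and position alone cannot tell these genes apart. Each of the 3 transcripts of cbt starts at the same base.

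The strongest cbt peak was among the highest in the whole list, and 0.975% of protein-coding genes had a summit in its first 100. Its summit at 481086 lay 1398 bp upstream of the cbt start and had an authors' signal value of 5197, which was rank 5. The signal was 2109 in replicate 1, where it came at rank 2, and 3147 in replicate 2, where it came at rank 5. The summit positions of the replicates were 22 bp lower and 13 bp higher than in the IDR list. At 831 bp the region was wide, with 72 of the 8005 IDR peaks wider and a median width of 307 bp in that list.

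The promoter peak of cbt had its summit at 480062, 374 bp upstream of the start. Its signal was 2484 and its rank 73, with rank 137 in replicate 1 and rank 60 in replicate 2. Both replicates thus placed it in the first 137 regions, with summits at most 18 bp away. The last summit, at 479145, lay 543 bp downstream of the start, in the 5' UTR of transcripts cbt-RB and cbt-RC and in the intron of cbt-RA. Its signal was 1415 and its rank 361. The replicates differed on this peak more than on the others: rank 103 in replicate 1 stood beside rank 884 in replicate 2, a ratio of 8.58. Among the 361 IDR peaks ranked as high, the median ratio was 1.56, and 5 peaks, this one included, had a ratio as large.

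**Figure D2:**
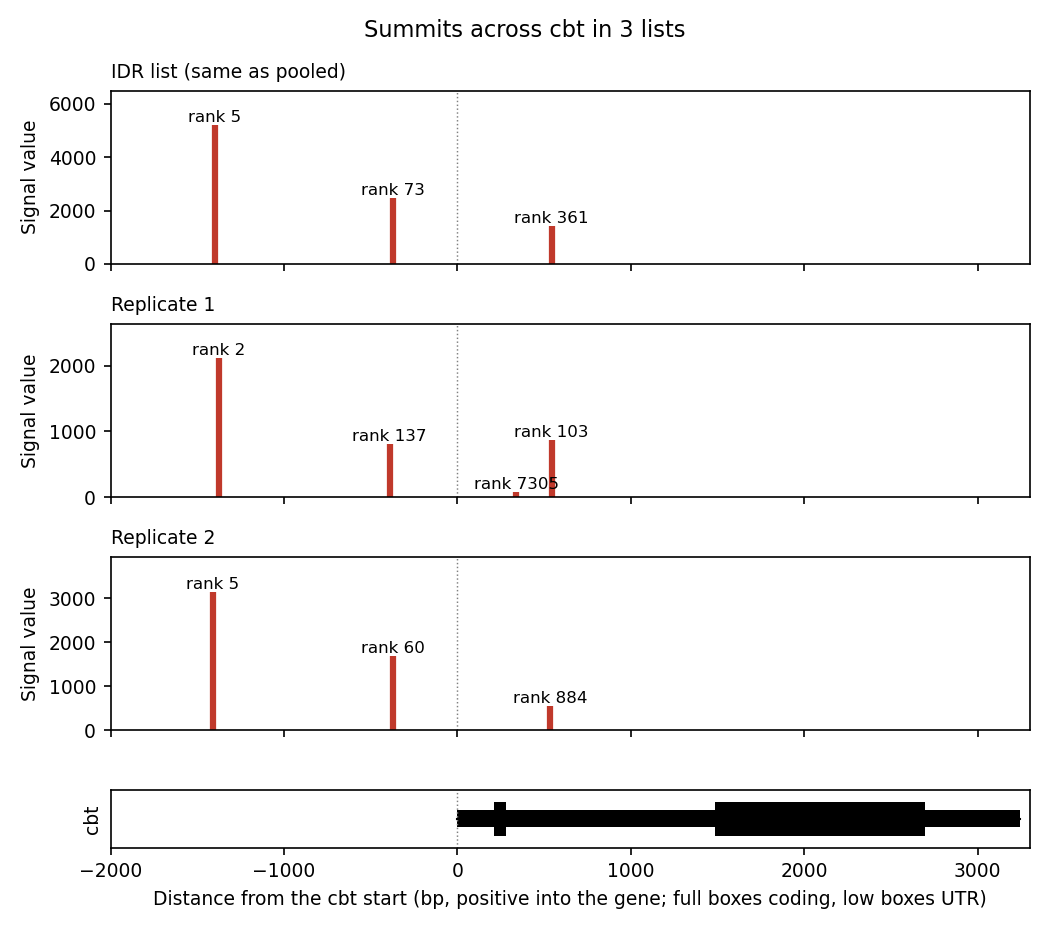
Summits across cbt in the IDR list and in the replicate lists, as authors' signal value (vertical axis, own scale in each list) against distance from the cbt start in bp, with the rank in each list above each line and the gene drawn at the bottom. The same 3 positions recur in every list, the upstream one is the highest in each, and replicate 1 holds a further weak summit at rank 7305.

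The summits of cbt were 917 and 1024 bp apart, so the outer ones were separated by 1941 bp. Of the 7993 runs of 3 neighbouring IDR summits on the chromosomes, 377 (4.72%) were no wider. Runs of any width with all summits at rank 361 or higher numbered 2, and of these only the run at cbt was that narrow. The limits are those of cbt itself, so this is a description. A weaker IDR peak followed at 482010, 322 bp beyond the span and 2322 bp upstream of the start, at rank 2324. The pooled list had no further region in the span. Counted without the 2000 bp upstream, cbt had 1 IDR summit instead of 3, so its density rests on the upstream sequence. In summits per length with it, cbt had 5.72 per 10 kb, and 0.918% of protein-coding genes were as dense. Among genes with spans of 4 to under 8 kb, 26.9% had an IDR summit at all. The genes nearest in density among the 803 others with at least 3 summits were HmgZ with 5.66 per 10 kb, dbo with 5.62 and Adh with 5.61. Their strongest summits ranked 21, 1126 and 2626.

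Beyond cbt, ush held 11 IDR summits in its own span of 66.3 kb. The strongest of these was the summit of rank 2324 just upstream of cbt. Another was at an ush promoter, 390 bp upstream of a start, at rank 5317.

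The sequence at the cbt summits shows a pattern that the choice of genes did not use. The windows of 101 bp, which are all given here on the plus strand of dm6 from the NCBI reference, were poor in G and C at the upstream and promoter summits and richer 500 bp away. Capitals mark the word TTAAAA, the word AAATAT or the word AAAATA on either strand, which are the words of 6 bases with the largest excess of windows at IDR summits outside the members over their flanks; these words were chosen after the data were seen. The upstream summit (chr2L:481036-481136, 28.7% GC), its flank toward the cbt start (chr2L:480536-480636, 40.6% GC) and its flank away from it (chr2L:481536-481636, 63.4% GC) are followed by the promoter summit (chr2L:480012-480112, 31.7% GC). The flank of the promoter summit away from the start (chr2L:480512-480612, 39.6% GC) is not printed and holds 1 match to these words, so flanks are not free of them.
cbt upstream summit: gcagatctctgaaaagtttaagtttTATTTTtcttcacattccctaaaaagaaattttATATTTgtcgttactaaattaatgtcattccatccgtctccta
cbt upstream, flank toward the start: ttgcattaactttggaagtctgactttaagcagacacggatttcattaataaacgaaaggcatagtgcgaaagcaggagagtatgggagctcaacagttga
cbt upstream, flank away from the start: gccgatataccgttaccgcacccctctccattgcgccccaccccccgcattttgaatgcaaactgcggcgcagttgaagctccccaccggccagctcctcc
cbt promoter summit: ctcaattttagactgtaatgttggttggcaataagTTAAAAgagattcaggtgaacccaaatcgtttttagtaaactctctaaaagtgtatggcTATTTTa

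The 5' UTR summit of cbt was the exception among all 26 member summits, with 50.5% GC in its window and a mean of 37.1% in its flanks. The palindrome CACGTG, the core of the element that Mondo and Mlx bind, occurred 3 times in the cbt span, once within 250 bp of each summit. Its first base lay 200 bp above the upstream summit, 97 bp below the promoter summit and 49 bp above the 5' UTR summit in plus-strand coordinates. None of the 23 other member summits had it that near, so the share was 3 of 26 member summits (11.5%), against 5.35% of all IDR summits. The distance of 250 bp was chosen after the data were seen. Within 100 bp the word was at 2 member summits (7.69%), against 1.44% of all, and within 25 or 50 bp at 0. Over the whole IDR list it was in 0.437% of the windows of 101 bp and in 1.29% of flanks, so wider windows reach toward more frequent matches. Of 52 member flanks it was in 0. All matches near member summits come from cbt alone, so nothing is read from the shares. A match is not shown to be a bound site.

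The gene dar1 (dendritic arbor reduction 1, FBgn0263239) shapes the dendrites of sensory neurons. It lies on the plus strand of 3L from 3626352 to 3653442 and had 4 IDR summits, all intronic and none near its single start. The first intron, 17497 bp long, held 3 of them, at 6355, 7953 and 13137 bp from the start. The one at 7953 bp was the strongest, with a signal of 506 and rank 2085, and the ranks were 1608 in replicate 1 and 2687 in replicate 2. The summit at 6355 bp had rank 3196 with ranks 2948 and 3494 in replicates 1 and 2, and the summit at 13137 bp had rank 4631 with ranks 4575 and 4687. The last one lay in the fifth intron, 23373 bp from the start, at rank 5595, with rank 5503 in replicate 1 and rank 6074 in replicate 2. All 4 were ranked higher in replicate 1, as were 43.3% of the 7686 IDR peaks found in both lists.

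At the dar1 start itself there was a weak region. The pooled list had a summit 119 bp upstream at rank 10559, outside the IDR list, and the replicates had it at rank 8355 and rank 15848. In density dar1 was ordinary for its length: 24.9% of the 807 genes with spans of 20 to under 50 kb were as dense. Distances between its summits were 1598, 5184 and 10236 bp.

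The dar1 windows had the lowest median GC of the members with summits, 24.3%, and ranged from 22.8% to 25.7%. They are shown on the plus strand of dm6 in gene order, because all 4 hold at least 1 of the AT-rich words in capitals, at chr3L:3632657-3632757, chr3L:3634255-3634355, chr3L:3639439-3639539 and chr3L:3649675-3649775. The upper flank of summit 3, chr3L:3639939-3640039 with 49.5% GC, is given for comparison. No dar1 flank was richer in GC, and it holds none of the words. The lower flank of summit 3 had 40.6% GC and 2 word matches. The flanks of summit 4 had 27.7% GC with 0 matches and 37.6% GC with 1 match. Those of summits 1 and 2 had 29.7% to 49.5% GC and 0 matches.
dar1 summit 1: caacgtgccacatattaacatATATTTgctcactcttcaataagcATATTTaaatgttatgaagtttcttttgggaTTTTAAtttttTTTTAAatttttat
dar1 summit 2: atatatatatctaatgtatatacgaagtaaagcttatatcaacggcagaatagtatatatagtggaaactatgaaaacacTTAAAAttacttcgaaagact
dar1 summit 3: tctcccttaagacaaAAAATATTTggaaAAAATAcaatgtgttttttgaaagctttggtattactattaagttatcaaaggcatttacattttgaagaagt
dar1 summit 4: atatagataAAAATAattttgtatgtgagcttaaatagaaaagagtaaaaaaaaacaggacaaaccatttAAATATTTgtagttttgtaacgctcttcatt
dar1 summit 3, flank: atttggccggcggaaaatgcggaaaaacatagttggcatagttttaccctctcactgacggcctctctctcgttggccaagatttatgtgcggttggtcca

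Across the members the dip in GC content was shared. Of the 26 IDR windows, 25 had less GC than the mean of their flanks, with a median of 30.7% at the summit and 43.3% in the flanks and a median difference of -13.1 points. Of all 8005 IDR summits 84.4% had less GC than their flanks, with the same median of 30.7% at the summit. The members are thus like the list as a whole in this measure. The 86 pooled summits in the same genes that fell outside the IDR list had a median of 44.1% at the summit and 43.6% in the flanks, and 47 of them (54.7%) were below their flanks. Over all 21995 such regions the share was 55.5%. The part of base composition in the signal was not tested.

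**Figure D3:**
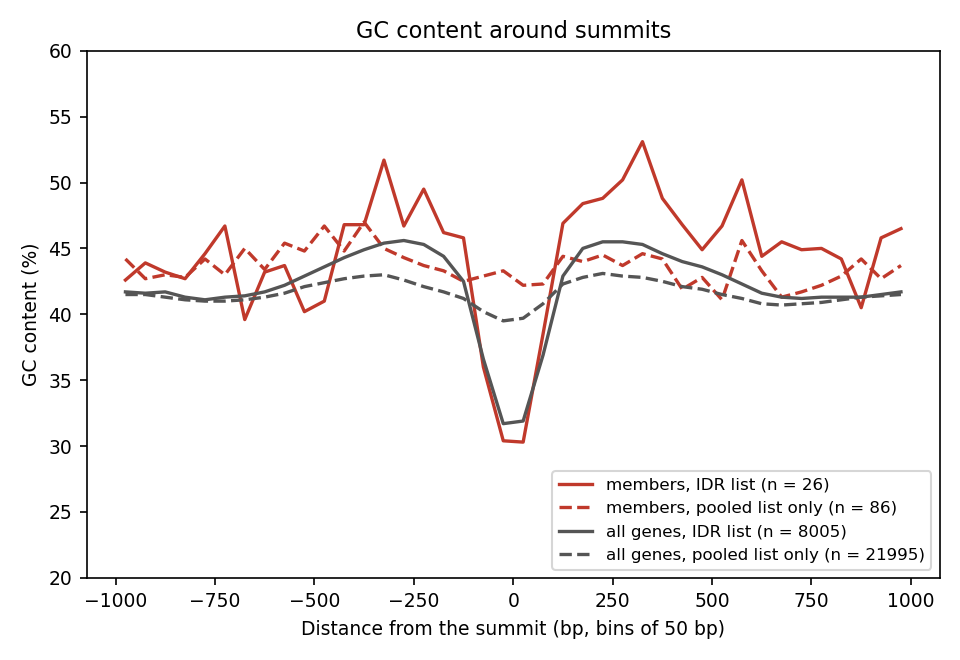
GC content in percent (vertical axis) in bins of 50 bp by distance from the summit in bp, for the 26 IDR and the 86 pooled-only summits of the members (red) and for all 8005 IDR and 21995 pooled-only summits (grey). The member IDR line drops to 30.3% beside the summit and all IDR summits to 31.7%, while the pooled-only members remain at 42.2% or more in the bins within 100 bp.

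The AT-rich words followed this composition. At least 1 of the 3 occurred in 17 of 26 member windows (65.4%) and in 34.6% of their flanks, against 63.0% of the other 7979 IDR windows and 34.3% of those flanks. Of 13 words chosen for known factors, 8 had no match in any member window. Among them were CACACCC, CCNCNCCC and the GC box GGGCGG, words of the type that Krüppel-like factors bind, and TATCGATA, the DNA replication-related element. These words were in 0.462%, 1.72%, 1.20% and 0.300% of all IDR windows, so 26 windows can show little either way. The Krüppel-like words were more frequent in flanks than at summits. CCNCNCCC was in 6.04%, GGGCGG in 4.15% and CACACCC in 1.29% of all flanks. Of 52 member flanks they were in 3, 1 and 0. GGGCGG was at 0 member summits within 100 bp, against 2.85% of all IDR summits. CCNCNCCC and CACACCC did occur at member summits in wider windows, which reach toward the flanks. Within 100 bp CCNCNCCC was at 2 member summits (7.69%), 1 of dar1 and 1 of CG42741, against 3.94% of all IDR summits, and within 250 bp at 4 (15.4%), against 20.3%. CACACCC was at 0 within 100 bp and at 2 within 250 bp (7.69%), 1 of cbt and 1 of CG42741, against 5.06% of all. GAGAG, the site of GAGA factor, was in 5 member windows (19.2%), 2 of cbt, 2 of luna and 1 of CG42741, and in 9.33% of all IDR windows. It was also in 9 of 52 member flanks and in 13.9% of all flanks, so it was not concentrated at the summits. The word AGGTCA, bound by nuclear receptors, was found in 2 windows of CG42741 (7.69%) and in 0 of 52 member flanks, against 2.12% of all IDR windows and 2.19% of all flanks. The word TTTTTTTT occurred in 5 windows (19.2%), at luna, dar1 and CG42741, and in 2 of 52 member flanks, against 9.14% of all windows and 6.72% of all flanks. CATTCC, the site of Scalloped, was at the upstream cbt summit and in 3.04% of all windows. CAGCTG, an E-box, was at the 5' UTR summit of cbt and in 2.29% of all. The others without a match were GAGAGAG with 1.57% of all windows, CACGTG with 0.437%, TGANTCA with 2.82% and CAGGTAG with 0.312%.

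CG42741 (FBgn0261705) is a Krüppel-like factor gene known by its annotation number, to which no role is given here. It lies on the minus strand of 2R from 23011078 to 23042943, inside the annotated extent of twi, which encodes the basic helix-loop-helix factor Twist of mesoderm. All 10 IDR summits lay in the third intron of CG42741, 25741 bp long, and all 10 lay in an intron of twi as well. The first was 7992 bp and the last 28010 bp from the CG42741 start. The strongest, 24505 bp from the start, had a signal of 977 and rank 760, with rank 537 in replicate 1 and rank 986 in replicate 2. The next in rank was the first along the gene, at rank 1984 with ranks 2354 and 1785 in replicates 1 and 2. It was followed by the summit at 22388 bp, at rank 2333 with ranks 2489 and 2425.

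The other 7 summits of CG42741 ranked between 3399 and 6638. The weakest, at 28010 bp, had rank 4374 in replicate 1 and rank 10087 in replicate 2, and it was the one member peak that fell beyond the first 8005 of a replicate list. Neighbouring summits of this intron were 1352 to 3828 bp apart with a median of 2145 bp over 9 distances. For luna the 8 distances ranged from 897 to 14928 bp with a median of 9098 bp. Over all protein-coding genes with at least 2 IDR summits the median of 4545 distances was 1999 bp, so the spacing within CG42741 was near that of other genes and luna's was wider. Overlapping genes count a distance more than once in that number.

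CG42741 was dense for its length, with 2.95 IDR summits per 10 kb, and 3.47% of the 807 genes with spans of 20 to under 50 kb were as dense. Only 14 genes of that class had more than 10 summits. Its start had no IDR peak. The pooled list held a summit 227 bp upstream of the start at rank 13851, and in the replicates the best regions near the start ranked 16025 and 14237. Outside the CG42741 span, twi had 4 further IDR summits, of which the strongest ranked 1665, and no IDR summit lay at a twi promoter.

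luna (FBgn0040765) encodes a factor related to the mammalian KLF6 and KLF7 class, with roles in embryonic development and sister chromatid separation. It is the longest member, on the minus strand of 2R from 10977956 to 11116378, with 2 annotated starts. The 9 IDR summits ranked from 1469 to 5237 with a median of 3982. The strongest, 50620 bp from the gene's 5' end, had a signal of 654, and its ranks were 903 in replicate 1 and 2295 in replicate 2. The next, at 21932 bp and rank 1729, had rank 1419 and rank 1969 in the replicates, and another lay 897 bp from it at rank 2406. The closest summit to a start was 3821 bp downstream of the inner one, in the first intron, at rank 2335 with ranks 2290 and 2395.

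The second intron of luna, 108407 bp long, held the other 8 IDR summits. Split at its midpoint, a division made after the data were seen, it had 7 of them in the 54.2 kb toward the gene start and 1 in the 54.2 kb toward the gene end. The pooled list had 39 summits, or 7.20 per 10 kb, on the side of the gene start and 12, or 2.21 per 10 kb, on the side of the gene end. Replicate 1 listed 39 and 11 summits on these sides, and replicate 2 listed 34 and 13. The side of the gene end holds 14.1 kb of annotated transposable elements and the other side holds none, and their part in the difference was not tested. GC content was 43.9% on the side of the gene start and 42.8% on the side of the gene end. The summit of this intron at rank 4600 also lay in the span of CG43188, a gene within luna on the other strand, 1685 bp upstream of its start.

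**Figure D4:**
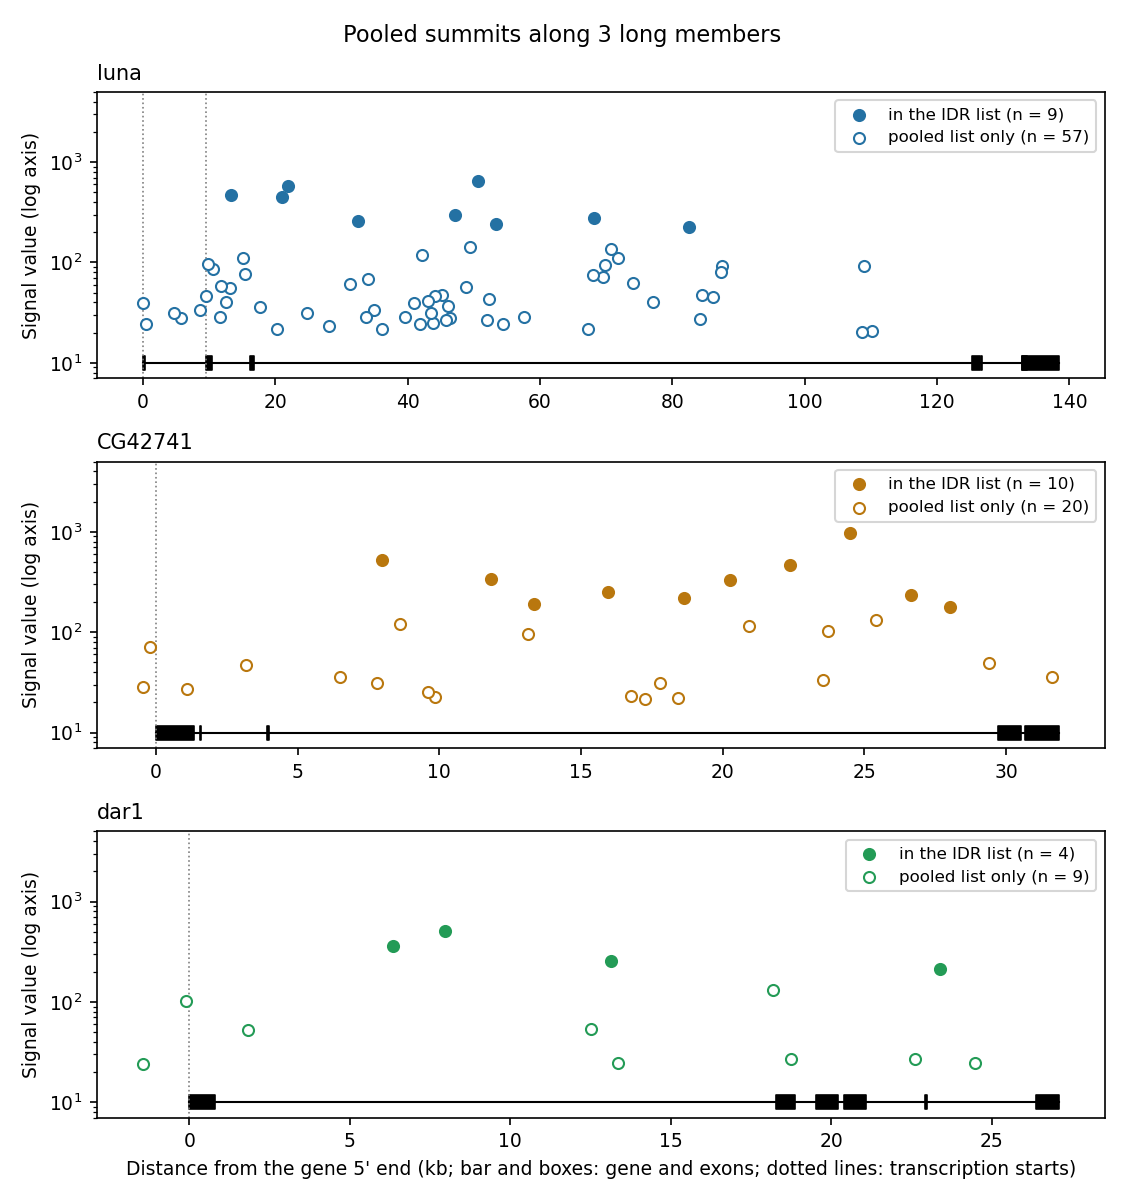
Pooled summits along luna, CG42741 and dar1, as authors' signal value (log axis) against distance from the gene's 5' end in kb, with filled points for the IDR list, open points for regions of the pooled list only, and exons as boxes. Filled points lie between exons in all 3 genes, those of CG42741 are confined to 1 intron, and the part of luna near its 3' end has few points of either kind.

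Relative to its length luna was ordinary, with 0.641 IDR summits per 10 kb. Of the 85 genes with spans of 100 kb or more, 72.9% had an IDR summit, the median number was 4 and 35.3% were as dense as luna. Its starts had weak regions alone: at the inner start the best pooled summit lay 218 bp downstream at rank 10877, and at the outer start 94 bp downstream at rank 20429. No region near the outer start was listed in replicate 1. luna had 57 pooled summits outside the IDR list, CG42741 had 20, dar1 had 9 and cbt had none. The highest of these were at ranks 8067 in luna, 8521 in CG42741 and 8525 in dar1, just beyond the threshold, and the lowest member inside it was the CG42741 summit of rank 6638.

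Klf15 (FBgn0025679), which is required for the differentiation of nephrocytes, is the shortest member, on the minus strand of X from 4770557 to 4771588. No list held a summit in its span. For the IDR list this was the usual state of short genes, since 15.3% of the 6517 genes with spans under 4 kb had an IDR summit. The share was 48% for spans of 8 to under 20 kb, 66.3% for 20 to under 50 kb and 71.3% for 50 to under 100 kb. No such shares by span are given here for the pooled and replicate lists. The nearest IDR summit was 79110 bp from the span, in the gene ctp, and the nearest pooled summit 7850 bp from it at rank 18306. Replicate 2 had a region 3058 bp from the span at rank 16139. Each list is limited to its own number of regions, so weaker enrichment at Klf15 is not tested by them.

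All 26 member peaks overlapped a region in both replicate lists, as did 96.0% of all IDR peaks. For 25 of them this region belonged to the first 8005 in each replicate, against 77.8% of the list. The weakest member peak had rank 6638, whereas the share of the list includes its weaker peaks, so the 2 shares are not alike. The IDR list was derived from these lists, so the overlap is not independent. The replicate summits lay a median of 20 bp from the member summit in replicate 1 and 9 bp in replicate 2, against 19 and 11 bp over all IDR peaks. The largest distances were 125 and 52 bp. By median rank cbt stood at 73, dar1 at 3914, luna at 3982 and CG42741 at 4142. The ranges of dar1, luna and CG42741 overlapped one another, and that of cbt, from 5 to 361, overlapped none of them.

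**Figure D5:**
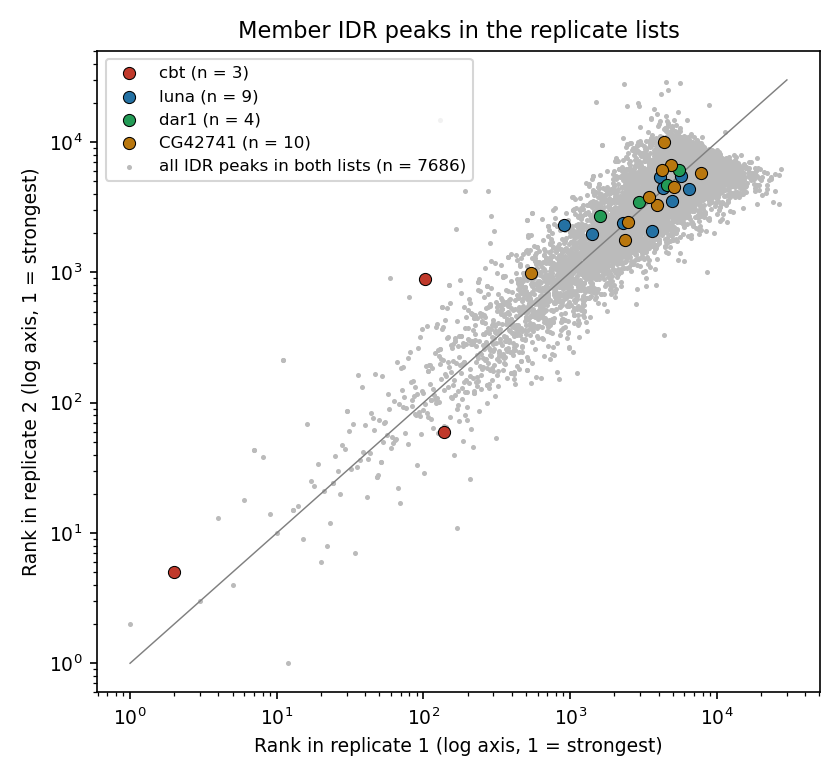
Rank of each IDR peak in replicate 2 (vertical log axis) against replicate 1 (horizontal log axis), where 1 is the strongest, with the member peaks coloured and the 7686 IDR peaks found in both lists in grey. The 3 cbt peaks stand apart at low rank numbers, the 5' UTR peak of cbt lies above the diagonal at 103 and 884, and the other members mix at rank numbers above 500.

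Related genes were looked at for comparison, in lists chosen with earlier results known. Their counts stand beside 27.6% of all protein-coding genes with an IDR summit in the span and 16.2% with one at a promoter. Among 4 relatives of the Sp class, which share the zinc finger type, Sp1 and btd had IDR summits and Spps and hkb had none. Sp1, a gene of leg growth, had 2, the better at rank 2858 in an intron, and btd, a head gap gene, had 1 at rank 6772, 203 bp upstream of its start. Of 10 genes of sugar sensing, 6 had an IDR summit in the span and 3 at a promoter. Their median span was 8.60 kb, and 48% of all genes with spans of 8 to under 20 kb had an IDR summit. bigmax, which encodes the fly Mlx, had its best at rank 1557, 1303 bp upstream, while Mondo had none. sug, a sugar-responsive zinc finger gene, had its best at rank 2892, Pepck2 at rank 3155 among 4 summits, and daw, an activin-type ligand gene, at rank 4650. Pepck1, the enzyme gene of gluconeogenesis, had none.

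Of 7 nephrocyte genes, 4 had an IDR summit in the span and 3 at a promoter. Their median span was 58.6 kb, and 71.3% of all genes with spans of 50 to under 100 kb had an IDR summit. kirre and pyd, whose proteins are parts of the slit diaphragm, had 38 and 13, with best ranks 382 and 699, rols had 13 with best rank 1243, and Mec2 had 1 at rank 3653. The span of kirre is 396 kb long. sns, Cubn and Amnionless had none. Of 8 genes of transcription factors of dendrite shape, 7 had an IDR summit and 4 had one at a promoter. The median span of these genes was 50.2 kb, and of all genes with spans of 20 to under 50 kb and of 50 to under 100 kb, 66.3% and 71.3% had an IDR summit. The best ranked were lola at rank 627, jim at 1338, pdm3 at 1545 and ab at 1950, and kn had none. The median number of IDR summits was 3 in this list, 1 in the nephrocyte and sugar sensing lists and 0.5 in the Sp list, beside 0 over all protein-coding genes, with median spans of 50.2, 58.6, 8.60 and 5.43 kb beside 4.17 kb. The best of these genes ranked below each of the 3 cbt summits.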

How the data were processed

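The 2 libraries form 1 group, so no contrast between conditions exists. The authors deposited region lists on dm6, 1 for each replicate, 1 for the pooled replicates and 1 that passed their irreproducible discovery rate (IDR) threshold. Per the deposited text files, a control file entered each replicate list and the pooled list. No source used here names the peak caller, aligner, filters or IDR threshold. Signal values are as the authors deposited them. With no stated scale, they served for description and for ranks inside 1 list. The authors' summit offset gave each summit position. Depth is unknown because the lists hold no read counts.

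Genes came from Ensembl release 115 without annotated transposable elements, and sequence from the NCBI Release 6 assembly. The highest region end on each of the 6 chromosomes lay within the assembly's sequence, and coordinates are counted from 1. A summit belonged to a gene from 2000 bp upstream to the gene end, and to a promoter within 500 bp of a start of that gene. A summit elsewhere took the first that fitted of UTR at the 5' end, coding sequence, UTR at the 3' end, noncoding exon, intron or upstream sequence. Sequence windows held 101 bp at each summit and 500 bp to each side. Words were searched on both strands. Members, gene lists and words were chosen with earlier results of these data known, so values are descriptions and no test was run. Summit counting was tested on simulated data with Python 3.11.15. The named items are the 5 members with all IDR summits, up to 4 genes of each related list by best rank, and the 3 genes nearest to cbt in summit density among those with at least as many summits. The planned comparison of member proteins was not made, and luna and CG42741 sequences are not reported here.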

Additional observations from a re-analysis of the deposited data

How the results depend on the processing

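The total of 26 member IDR summits was 24 without upstream sequence, 27 with 5000 bp upstream, 26 by region overlap, 15 in the strongest 4002 peaks of the IDR list and 112 in the whole pooled list. With 1 replicate list in place of the IDR list, limited to its first 8005 regions, it was 27 to 32. Klf15 had 0 and cbt at least 3 in each of these settings, except that cbt had 1 without upstream sequence. The count of 1 promoter summit was 0 with a window of 250 bp, 2 with 1000 bp and 1 to 2 in single replicates, always at cbt. The median rank percentile of member summits, where low is strong, was 42.9, and it was 44.2 to 52.8 in single replicates. In the strongest 4002 peaks it was 52.1 over the 15 summits left. That percentile is taken of 4002 peaks, so it is not comparable with 42.9. Recovery in both replicates was 24 of 26 when at least 0.5 of the peak's length had to be covered, and 25 within the first 8005 regions of each. Of 13 words 5 were matched, also with 25 bp to each side, and 9 with 100 bp, since longer windows hold more matches. Summits with less GC than their flanks, an analysis added after the data were seen, were 25 of 26, 24 with windows of 25 or 100 bp to each side and 26 to 31 in single replicates, of 27 and 32 summits. No paired analysis was possible because there is 1 group. Depth is unknown, so no limit on undetected regions is given.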
